A study of Mus musculus with 10 samples.

Results

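The genes described here are p53 target genes that promote cell death, measured in mouse liver progenitor cells after transfection of an antisense oligonucleotide to miR-30a. A list of 10 gene symbols was looked up in the platform annotation, and a probe set was kept where the annotation gave it exactly 1 of these symbols. This found 14 probe sets of 9 genes (Bbc3, Pmaip1, Apaf1, Fas, Tnfrsf10b, Eda2r, Pidd1, Perp and Aen), out of 34945 probe sets of 18193 genes with 1 symbol. For Bax, the remaining symbol, the annotation used here lists no probe set with that symbol alone, so it was not analysed here. Where a gene had several probe sets, the brightest by its mean over all 10 arrays was its main probe set, and these mean levels are a description only.

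The cells were BMELs, bipotential mouse embryonic liver cells, progenitors that can mature along the hepatocyte or the bile duct lineage. Both groups received a locked nucleic acid (LNA) oligonucleotide with Oligofectamine. LNA carries a bridged sugar that tightens base pairing. In the ASO-30a group (5 arrays) the oligonucleotide was antisense to miR-30a, and in the Scrambled group (5 arrays) it was a scrambled control. Its dose, the time from transfection to RNA isolation and the origin of the 5 replicates (separate cultures or not) were not given in the sources used here. The p-values therefore reflect sample-to-sample spread alone, and that spread may be technical. The arrays measure messenger RNA, so the level of miR-30a itself was not analysed here.

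p53 is a transcription factor that accumulates when DNA is damaged or cells are stressed, and it switches on genes for growth arrest, DNA repair and apoptosis. Its death targets act at several points. BH3-only proteins release the BAX and BAK pore formers at mitochondria, a cytosolic scaffold then turns released cytochrome c into caspase activation, and death receptors at the cell surface start a separate caspase route. Hepatocytes carry death receptors such as Fas, and the liver is well known for its sensitivity to Fas ligation. MicroRNAs such as miR-30a pair with messenger RNAs through a short seed and lower their level or translation.

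The main mature strand of miR-30a, the microRNA that the labels name as the target, is shown with the other members of the miR-30 family that the RefSeq table (GRCm38.p6) holds, because a shared seed means shared pairing with messenger RNAs. The sequence of the oligonucleotide itself, and so the strand it pairs with, was not given in the sources used here. The capitals mark the seed, bases 2 to 8 of the mature strand, which is GUAAACA in all 3 sequences. The mature miR-30a-5p strand lies at chr1:23272274-23272295 (plus strand), miR-30c-5p at chr4:120769584-120769606 (minus strand) with a second identical copy on chromosome 1, and miR-30e-5p at chr4:120772660-120772681 (minus strand).
miR-30a-5p: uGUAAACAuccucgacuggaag
miR-30c-5p: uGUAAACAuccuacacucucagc
miR-30e-5p: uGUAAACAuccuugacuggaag

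Promoter windows of these genes, from 250 bases before to 50 bases after a transcription start, were read from the RefSeq table of the same build for 7 of the 10 symbols (Bbc3, Bax, Apaf1, Fas, Eda2r, Pidd1 and Aen). They were searched on both strands for the p53 half-site consensus, the 10-base unit that p53 binds in pairs. Aen and Bax held a match in a window, 2 of 7 genes, against 9.55% of 27025 genes in the table. No match in the other windows says only that these letters are absent there. Likewise a match says only that they are present. The Aen and Bax windows with a match held 1 half-site each, not a pair, and binding by p53 was not measured. The Aen window at chr7:78895677-78895976 (plus strand) is shown whole, with the half-site in capitals, since Aen was among the genes closest to the test's threshold.
Aen promoter window: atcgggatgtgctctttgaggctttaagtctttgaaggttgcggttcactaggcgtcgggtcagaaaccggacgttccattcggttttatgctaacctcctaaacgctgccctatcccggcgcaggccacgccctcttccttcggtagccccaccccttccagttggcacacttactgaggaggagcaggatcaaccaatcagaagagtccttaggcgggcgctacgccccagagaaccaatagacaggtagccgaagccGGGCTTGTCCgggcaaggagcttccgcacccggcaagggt
The half-sites of Aen and Bax are set beside those of 3 arrest and feedback targets of p53 that passed the test in these data (Cdkn1a, Ccng1 and Mdm2), each with 10 bases on either side. These 3 were picked as examples. The windows of other p53 targets that passed, such as Polk, Ercc5 and Ddit4l, are not shown. The stretch from Cdkn1a, the best known p53 target, holds 2 half-sites, while a second Cdkn1a window held none. The stretches lie at chr7:78895927-78895956 (Aen, plus strand), chr7:45467080-45467109 (Bax, minus strand), chr17:29090896-29090947 (Cdkn1a, plus strand), chr11:40755452-40755481 (Ccng1, minus strand) and chr10:117710925-117710954 (Mdm2, minus strand).
Aen: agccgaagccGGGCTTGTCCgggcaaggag
Bax: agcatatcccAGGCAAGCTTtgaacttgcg
Cdkn1a: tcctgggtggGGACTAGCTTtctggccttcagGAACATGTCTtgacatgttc
Ccng1: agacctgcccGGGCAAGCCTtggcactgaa
Mdm2: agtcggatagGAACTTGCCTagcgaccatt

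The values are the deposited log2 expression values, and a difference of 1 is a 2-fold change. The 10 array medians lay between 5.21 and 5.24. Of the 18193 genes, 12633 had a mean at or above 4.56, the level under which 40% of probe sets fall, and all 9 genes passed this filter. The labelled cell type was checked against markers. The keratins Krt8, Krt18 and Krt19 averaged 13.8, 13.7 and 13.5 in ASO-30a arrays, and likewise 13.8, 13.7 and 13.5 in Scrambled arrays. The hepatic transcription factor gene Hnf4a averaged 10.7 in both groups. Dimmer were Epcam (6.33 in ASO-30a and 6.34 in Scrambled arrays), the fetal liver gene Afp (6.43 in ASO-30a and 6.33 in Scrambled arrays) and the albumin gene Alb (4.70 in ASO-30a and 4.73 in Scrambled arrays, close to the filter level). Under the filter lay 3 of 4 endothelial markers (Pecam1, Cdh5 and Tek), 2 of 5 blood markers (Ptprc and Adgre1) and the mesenchymal marker Col1a1. Other markers lay above it, given here as ASO-30a and Scrambled means. They were endothelial Kdr (6.08 and 6.09) and the blood markers Csf1r (6.47 and 6.41), Cd68 (5.86 and 5.47) and Cd3e (5.48 and 5.56). Mesenchymal Des (5.67 and 5.65), Acta2 (5.44 and 5.38) and Pdgfrb (4.77 and 4.78) also lay above it. Kdr and Csf1r were thus about as bright as Epcam and Afp. Of the 5 blood and macrophage markers Cd68 rose in ASO-30a arrays by 0.39 (limma adjusted p = 0.0176). Of the 12 hepatic markers Ttr, the gene for transthyretin, had a change of -1.17 (limma adjusted p = 0.0574, and 0.000812 with arrays of the same number as a block). Sox9, a bile duct lineage gene, had a change of 0.17 without overlap of the groups (limma adjusted p = 0.0662, and 0.0571 with that block). The log2 of the summed level of the 3 blood markers above the filter ran from 7.43 to 7.69 in ASO-30a arrays and from 7.36 to 7.65 in Scrambled arrays, and that of the 11 hepatic markers tested from 15.40 to 15.45 in ASO-30a arrays and from 15.43 to 15.49 in Scrambled arrays, so the groups overlapped in both. The sums were taken on the unlogged scale, so the keratins make up most of the hepatic sum and Csf1r weighs most in the blood sum. Their overlap therefore does not bear on Cd68, Ttr or Sox9 singly. The part of these 3 differences in the results was not tested. The 3′ minus 5′ signal of the control transcripts, a sign of RNA quality, averaged 0.088 ± 0.0041 in ASO-30a arrays and 0.104 ± 0.039 in Scrambled arrays (SD, n = 5 each).

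The comparison asked which of these genes differed in level when miR-30a was targeted. All 9 had a higher mean in ASO-30a than in Scrambled arrays, by 0.13 to 0.26 on the log2 scale, or 1.10-fold to 1.20-fold, against 55.1% of all genes tested with a change above 0. None of the 9 passed the test over 12633 genes, where 1.16% of genes were called higher. Pmaip1, Pidd1 and Aen had the smallest adjusted p, 0.0506 each, just above the threshold of 0.05. All 9 had an unadjusted p under 0.05 and a change above 0, against 8.41% of all genes tested. The median change of the 9 was 0.21, against 0.01 for all genes tested. The genes were chosen with earlier results on p53 targets in these data known, so their common direction is not independent evidence of it.

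Both groups carry the replicate numbers 1 to 5, and a second fit used the number as a block, which compares each ASO-30a array with the Scrambled array of the same number. With this replicate block Pmaip1, Fas, Eda2r, Pidd1 and Aen rose, 5 of 9 genes, against 2.00% of all genes tested. Those 5 calls rest on all 5 pairs: with 1 pair left out the count was 3, 2, 1, 2 and 1 for replicates 1 to 5. Over all genes tested the number called higher also fell in those fits, from 253 to between 96 and 131. The groups of arrays did not overlap for Pmaip1, Pidd1, Perp and Aen, all higher in ASO-30a arrays, 4 of 9, against 2.74% of all genes tested. None of the 9 was lower without overlap, against 1.18%.

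**Figure D1:**
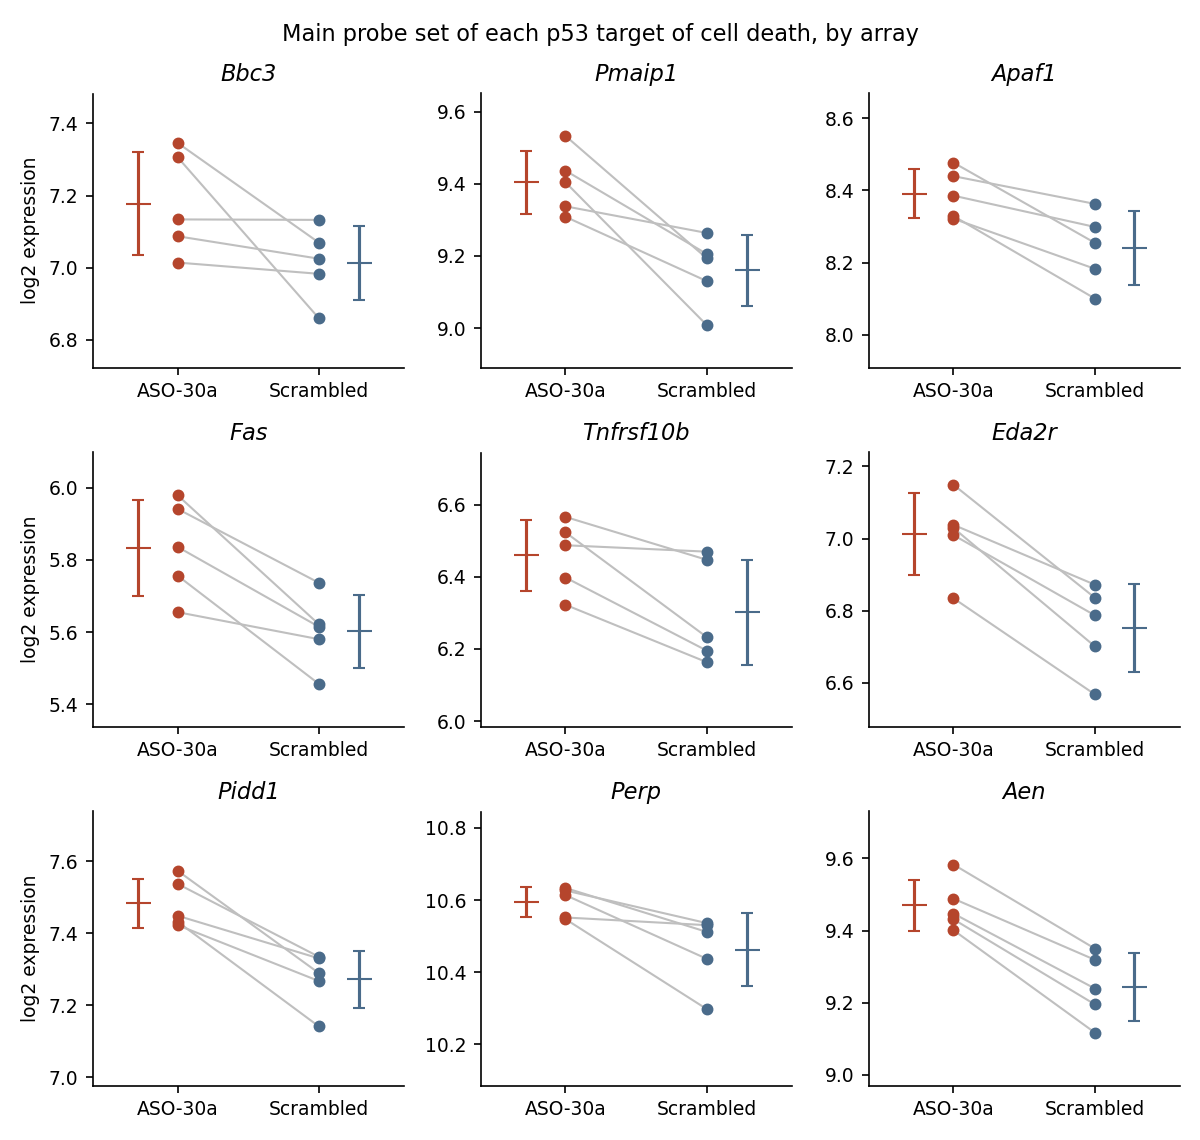
Log2 expression of the main probe set of each of the 9 genes, with ASO-30a arrays on the left and Scrambled arrays on the right of each panel (5 arrays each). Grey lines join arrays of the same replicate number, and the bars at the sides are the mean and SD. All panels span the same number of log2 units but start at different levels. No line runs upward from ASO-30a to Scrambled, and the groups do not overlap for Pmaip1, Pidd1, Perp and Aen.

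The mitochondrial arm was represented by Pmaip1, Bbc3 and Apaf1. Pmaip1 encodes Noxa, a BH3-only protein that binds the survival factor MCL1. It was at 9.34, 9.53, 9.44, 9.40 and 9.31 in ASO-30a arrays 1 to 5, against 9.26, 9.19, 9.21, 9.01 and 9.13 in Scrambled arrays 1 to 5. Every ASO-30a array lay above every Scrambled array, though the lowest ASO-30a array (replicate 5) was only slightly above the highest Scrambled array (replicate 1). The means were 9.40 ± 0.088 in ASO-30a and 9.16 ± 0.097 in Scrambled arrays (SD, n = 5 each). The change of 0.24 (SE 0.056, 95% interval 0.12 to 0.37) had an adjusted p of 0.0506, and of 0.0439 with the replicate block. With the block and 1 pair left out Pmaip1 passed without replicate 1 (adjusted p = 0.0443) and missed the threshold without replicates 2 to 5 (0.131, 0.120, 0.121 and 0.0954).

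Bbc3 encodes PUMA, a BH3-only protein that binds all major survival members of the BCL2 family. It was at 7.09, 7.13, 7.35, 7.31 and 7.01 in ASO-30a arrays 1 to 5, against 7.03, 7.13, 7.07, 6.86 and 6.98 in Scrambled arrays 1 to 5. ASO-30a arrays 3 and 4 stood above all Scrambled arrays and array 2 barely above the highest of them, while arrays 1 and 5 lay within the Scrambled range. The means were 7.18 ± 0.14 in ASO-30a and 7.01 ± 0.10 in Scrambled arrays (SD, n = 5 each), a change of 0.16 (SE 0.070, adjusted p = 0.336, and 0.267 with the replicate block). Its interval ran from 0.01 to 0.31.

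Apaf1 encodes the scaffold of the apoptosome, which binds cytochrome c and activates an initiator caspase. Its main probe set was at 8.44, 8.48, 8.39, 8.32 and 8.33 in ASO-30a arrays 1 to 5, against 8.36, 8.25, 8.30, 8.18 and 8.10 in Scrambled arrays 1 to 5. The groups overlapped through Scrambled array 1, which lay above ASO-30a arrays 4 and 5. The change was 0.15 (SE 0.053, adjusted p = 0.232, and 0.0831 with the block). The dimmer Apaf1 probe set, 1450223_at, averaged 6.76 ± 0.31 in ASO-30a and 6.65 ± 0.16 in Scrambled arrays (SD, n = 5 each), with ASO-30a array 4 at 6.23, below all Scrambled arrays. Its change was 0.11, with an interval from -0.17 to 0.39 that includes 0. It moved to 0.24 without ASO-30a array 4, and to 0.07, 0.04 and 0.05 without ASO-30a array 2, ASO-30a array 3 or Scrambled array 5.

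Death receptors and their relatives were Fas, Tnfrsf10b, Eda2r and the death domain protein gene Pidd1. Fas, the receptor for Fas ligand, was at 5.76, 5.66, 5.94, 5.98 and 5.84 in ASO-30a arrays 1 to 5, against 5.46, 5.58, 5.74, 5.62 and 5.61 in Scrambled arrays 1 to 5. The groups overlapped only through ASO-30a array 2, which lay below Scrambled array 3. The means were 5.83 ± 0.13 in ASO-30a and 5.60 ± 0.10 in Scrambled arrays (SD, n = 5 each), a change of 0.23 (SE 0.067, adjusted p = 0.120). With the replicate block Fas rose (SE 0.045, adjusted p = 0.0371), and with 1 pair left out it passed only without replicate 2 (adjusted p = 0.0431, against 0.101, 0.103, 0.107 and 0.101 without replicates 1, 3, 4 and 5).

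Eda2r encodes a receptor of the TNF receptor family that binds ectodysplasin A2. It had the largest change of the 9. It was at 7.03, 7.04, 7.15, 7.01 and 6.83 in ASO-30a arrays 1 to 5, against 6.70, 6.87, 6.84, 6.79 and 6.57 in Scrambled arrays 1 to 5. ASO-30a array 5 fell inside the Scrambled range, but the Scrambled array of that number was the lowest of its group, so array 5 was low in both groups. The means were 7.01 ± 0.11 in ASO-30a and 6.75 ± 0.12 in Scrambled arrays (SD, n = 5 each). The change was 0.26 (SE 0.067, interval 0.12 to 0.40, adjusted p = 0.0774), and with the block it rose (SE 0.037, adjusted p = 0.0126). Without ASO-30a replicate 5 it passed unblocked as well (change 0.30, adjusted p = 0.0461). With the block and 1 pair left out the adjusted p ran from 0.0343 to 0.0514 and missed the threshold only without replicate 3.

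Tnfrsf10b encodes the death receptor for TRAIL in mice. Its main probe set, 1422344_s_at, was at 6.40, 6.52, 6.57, 6.32 and 6.49 in ASO-30a arrays 1 to 5, against 6.20, 6.23, 6.45, 6.16 and 6.47 in Scrambled arrays 1 to 5. Scrambled arrays 3 and 5 lay inside the ASO-30a range and the other Scrambled arrays below it. The change was 0.16 (SE 0.070, adjusted p = 0.358, and 0.108 with the block). The dimmer probe set, 1421296_at, averaged 5.75 ± 0.094 in ASO-30a and 5.57 ± 0.10 in Scrambled arrays (SD, n = 5 each), a change of 0.18 (SE 0.060) that also did not pass (adjusted p = 0.259 over probe sets). The ending _s_at is the maker's mark for a probe set that can match more than 1 transcript, so the main value may not come from Tnfrsf10b alone.

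Pidd1 encodes a death domain protein that p53 induces and that builds the PIDDosome, a platform for caspase activation. It was at 7.43, 7.54, 7.45, 7.57 and 7.42 in ASO-30a arrays 1 to 5, against 7.14, 7.33, 7.33, 7.29 and 7.27 in Scrambled arrays 1 to 5. The groups did not overlap, and Scrambled array 1 was the lowest of all. The means were 7.48 ± 0.068 in ASO-30a and 7.27 ± 0.079 in Scrambled arrays (SD, n = 5 each), a change of 0.21 (SE 0.048, adjusted p = 0.0506). With the block Pidd1 rose (adjusted p = 0.0299), but it missed the threshold whichever pair was left out (adjusted p from 0.0571 to 0.0980).

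Of the remaining effectors, Perp encodes a tetraspan membrane protein of desmosomes that also takes part in p53-dependent death, and Aen encodes an apoptosis-enhancing nuclease. Perp was at 10.63, 10.55, 10.63, 10.55 and 10.61 in ASO-30a arrays 1 to 5, against 10.51, 10.53, 10.54, 10.30 and 10.44 in Scrambled arrays 1 to 5. The groups did not overlap, yet Perp had the smallest change of the 9, 0.13 (SE 0.050, adjusted p = 0.263, and 0.143 with the block). ASO-30a arrays 2 and 4 lay just above the highest Scrambled array, and the Scrambled spread came mainly from the low array 4. Without Scrambled replicate 4 its change was 0.09.

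Aen was measured by 4 probe sets, the most of any of the 9. The brightest, 1423957_at, was at 9.43, 9.58, 9.49, 9.45 and 9.40 in ASO-30a arrays 1 to 5, against 9.20, 9.35, 9.32, 9.24 and 9.12 in Scrambled arrays 1 to 5. The groups did not overlap, and the arrays, sorted by level, had the same order of replicate numbers in both groups. The means were 9.47 ± 0.071 in ASO-30a and 9.24 ± 0.094 in Scrambled arrays (SD, n = 5 each). The change was 0.23 (SE 0.052, interval 0.11 to 0.34, adjusted p = 0.0506), and with the block Aen rose (SE 0.033, adjusted p = 0.0142). With the block it missed the threshold without replicates 2 and 5 (adjusted p = 0.0537 and 0.0566), and unblocked it passed without Scrambled replicate 2 (adjusted p = 0.0443).

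The other 3 Aen probe sets had changes of 0.25 (1437373_at, SE 0.097), 0.12 (1450506_a_at, SE 0.065) and 0.11 (1451186_at, SE 0.080), with adjusted p over probe sets of 0.367, 0.549 and 0.694. The groups overlapped on each of them. The last lay at 4.88 ± 0.11 in ASO-30a and 4.77 ± 0.17 in Scrambled arrays (SD, n = 5 each), close to the filter level, and its change was 0.05 without Scrambled array 1. Averaged over its 4 probe sets Aen had a change of 0.18 and an adjusted p of 0.205, so its place near the threshold rests on the brightest probe set.

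**Figure D2:**
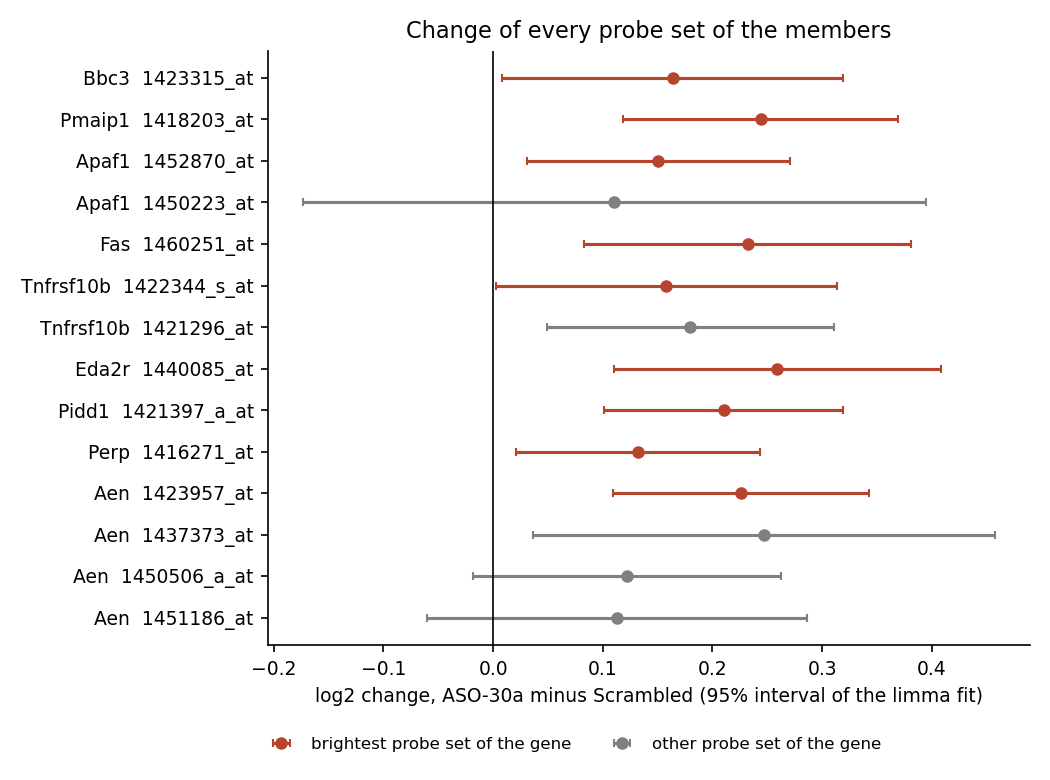
Log2 change (ASO-30a minus Scrambled, x axis) of each of the 14 probe sets, with its 95% interval from the limma fit over 27022 probe sets. Red points are the brightest probe set of a gene and grey points the others. All 14 points lie to the right of 0, and the intervals of Apaf1 1450223_at, Aen 1450506_a_at and Aen 1451186_at span 0.

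A separate fit took all 27022 probe sets above the filter, named or not. Its correction ran over more tests, and the SE of the main probe sets was slightly larger (for Aen 0.054, against 0.052 in the gene fit). No probe set of the 9 genes passed, while 11 of the 14 had an unadjusted p under 0.05, against 6.60% of all probe sets higher at that p. In that fit 0.500% of probe sets were called higher. With the replicate block 2 of the 14 passed, Eda2r (adjusted p = 0.0310) and the brightest Aen probe set (0.0352), against 0.788%. With the block and any 1 of the 5 pairs left out, 0 of the 14 passed. The groups did not overlap on 4 of the 14, against 2.10%. For 6 of the 9 genes there was 1 probe set, so these values have no second measurement on the array.

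Arrays of the same number were compared pair by pair. All 45 differences, 9 genes in 5 pairs, were above 0. Of all genes tested 10.6% were higher in the ASO-30a array of all 5 pairs. The median difference of the 9 genes was 0.20, 0.20, 0.17, 0.25 and 0.18 in pairs 1 to 5, so no pair stood far from the rest. The genes differed in how evenly they were spread over the pairs. Aen ranged from 0.17 to 0.28 and Eda2r from 0.17 to 0.33, whereas Bbc3 was at 0.06, 0.001, 0.28, 0.45 and 0.03, so pairs 3 and 4 carried nearly all of its difference. Pmaip1 was likewise uneven, from 0.07 in pair 1 to 0.40 in pair 4. Whether these genes differ from each other in size of change was not tested.

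**Figure D3:**
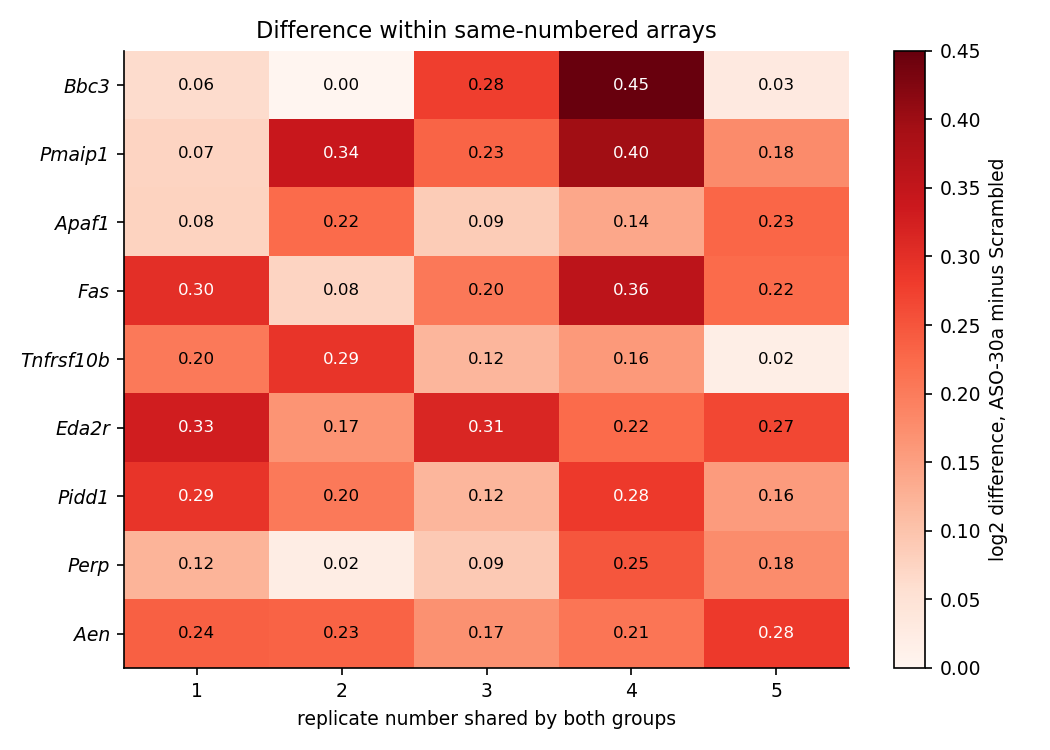
Log2 difference between the ASO-30a and the Scrambled array of the same replicate number (columns) for the main probe set of each of the 9 genes (rows), with darker red for a larger difference. No cell is below 0. Bbc3 has its large values in pairs 3 and 4, while the row of Aen is nearly even.

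The arrays also differed as a whole. The mean deviation of the 9 genes from their own means over the 10 arrays was 0.07, 0.12, 0.16, 0.11 and 0.03 in ASO-30a arrays 1 to 5, against -0.12, -0.05, -0.02, -0.17 and -0.14 in Scrambled arrays 1 to 5. Scrambled array 4 was the lowest array for 4 of the 9 genes, Scrambled array 5 for 3 and Scrambled array 1 for 2. The arrays nearest to the other group were ASO-30a array 5 and Scrambled array 3. In bulk RNA, more cells that express a gene and more of its RNA per cell cannot be told apart.

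The surrounding genes of the death pathway were counted in the same fit, from lists of symbols. Of 11 tested BCL2 family genes outside the 9 none passed in either direction, with 0 higher and 1 lower at an unadjusted p under 0.05 (limma), against 8.41% and 4.50% of all genes tested. The median change was -0.002. Bmf, a BH3-only gene, was at 8.38 ± 0.18 in ASO-30a and 8.64 ± 0.15 in Scrambled arrays (SD, n = 5 each), a change of -0.26 (adjusted p = 0.214). With the replicate block Bmf fell (adjusted p = 0.0125), against 1.04% of all genes tested, also with any 1 pair left out (largest adjusted p = 0.04995), but averaged over its probe sets its change was -0.08. Bcl2l11, the BH3-only gene that encodes BIM, had a change of 0.09, the effector-like gene Bok of -0.08, and the survival genes Bcl2l1 and Mcl1 of 0.06 each.

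Of 15 tested genes of caspases, the apoptosome and caspase inhibitors none passed. At an unadjusted p under 0.05 (limma), 3 were higher and 1 lower, against 8.41% and 4.50% of all genes tested. The 3 were Diablo (0.10), which relieves caspase inhibition, Casp8 (0.10), the initiator caspase of death receptors, and Dffb (0.15), the nuclease that cuts DNA in dying cells. Averaged over their probe sets Diablo was at 0.02 and Dffb at 0.05. Of 14 tested genes of death receptor signalling none passed. At an unadjusted p under 0.05, and against the same 8.41% and 4.50%, 0 were higher and 2 lower. Those were Tnfsf10, the gene for TRAIL (-0.22, adjusted p = 0.228), and Edaradd (-0.20, adjusted p = 0.275). Edaradd encodes an adaptor of EDAR, an ectodysplasin receptor other than the one encoded by Eda2r. Tnfrsf1b, a TNF receptor gene, was at -0.08. The median changes of these lists were -0.02 and -0.04.

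Among p53 family genes and regulators of p53, 2 of 15 tested rose and none fell, against 1.16% and 0.372% of all genes tested. The median change of this list was 0.02. Mdm2, the ubiquitin ligase that degrades p53 and is itself a p53 target, averaged 10.2 ± 0.12 in ASO-30a and 9.82 ± 0.11 in Scrambled arrays (SD, n = 5 each), a change of 0.42 (SE 0.066, adjusted p = 0.00850). Pml, which encodes the organiser of nuclear bodies where p53 is modified, averaged 8.30 ± 0.068 in ASO-30a and 8.02 ± 0.071 in Scrambled arrays, a change of 0.28 (SE 0.047, adjusted p = 0.0124, but 0.16 and 0.136 averaged over its probe sets). With the block Ppp1r13l, which encodes the p53 inhibitor iASPP and was named after its value was seen, also rose (0.26, adjusted p = 0.0295). With the block and 1 pair left out Mdm2 passed in all 5 fits, Pml only without replicate 1 (adjusted p = 0.0218, otherwise up to 0.0788) and Ppp1r13l only without replicate 1 (0.0308, otherwise up to 0.0963). The p53 gene Trp53 has no probe set with that symbol alone in the annotation used here.

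Of 10 other p53 targets linked to cell death, 2 rose and none fell, against 1.16% and 0.372% of all genes tested. They were Ddit4l, an inhibitor of mTOR signalling (0.44, adjusted p = 0.00669), and Trp53inp1, a nuclear stress protein (0.34, adjusted p = 0.0134, but 0.14 and 0.345 averaged over its probe sets). With the block Igfbp3, a binding protein of insulin-like growth factors named after its value was seen, also rose (0.31, adjusted p = 0.0295). With the block and 1 pair left out Ddit4l and Trp53inp1 passed in all 5 fits, and Igfbp3 only without replicate 3 (0.0440, otherwise up to 0.0970). The median change of this list was 0.13. Of 17 tested p53 targets of arrest, repair and metabolism, 4 rose and none fell, against the same 1.16% and 0.372%. With the block 6 rose, against 2.00% of all genes tested. The median change of these 17 was 0.10. With the block and 1 pair left out the 6 became 2, 0, 1, 3 and 3 for replicates 1 to 5. In those fits the number called higher over all genes tested fell from 253 to between 96 and 131. The 4 were the cyclin gene Ccng1 (0.29), Polk, a polymerase that copies past DNA damage (0.27), Ercc5, a nuclease of excision repair (0.24), and Cdkn1a, the p21 inhibitor of cyclin-dependent kinases (0.19, adjusted p = 0.0254). The 2 genes added by the block, named after their values were seen, were Gtse1 (0.20, adjusted p = 0.0219 with the block) and Plk2 (0.24, adjusted p = 0.0163 with the block).

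Each of the 6 block calls of this list was lost in some of the fits with 1 pair left out. Of the 5 such fits Polk passed in 3 (adjusted p from 0.0354 to 0.0599), Ccng1 in 2 (0.0443 to 0.0782), Plk2 in 2 (0.0409 to 0.0621), Ercc5 in 1 (0.0409 to 0.0938), Gtse1 in 1 (0.0391 to 0.0865) and Cdkn1a in 0 (0.0549 to 0.0925). Averaged over its probe sets Plk2 was at 0.15. Without the block Ccng1 and Polk passed with any 1 array left out, whereas Cdkn1a and Ercc5 did not. Cdkn1a missed the threshold with no filter on dim genes (adjusted p = 0.0534). It also missed the threshold without ASO-30a replicates 3, 4 or 5 (adjusted p = 0.0654, 0.0724 and 0.0665) and without Scrambled replicates 2, 3 or 4 (0.0607, 0.0721 and 0.0536). Ercc5 missed the threshold without ASO-30a replicates 3 or 4 (0.0627 and 0.0541) and without Scrambled replicate 3 (0.0580), and averaged over its probe sets its change was 0.11 (adjusted p = 0.384). These lists were also chosen with earlier results known.

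**Figure D4:**
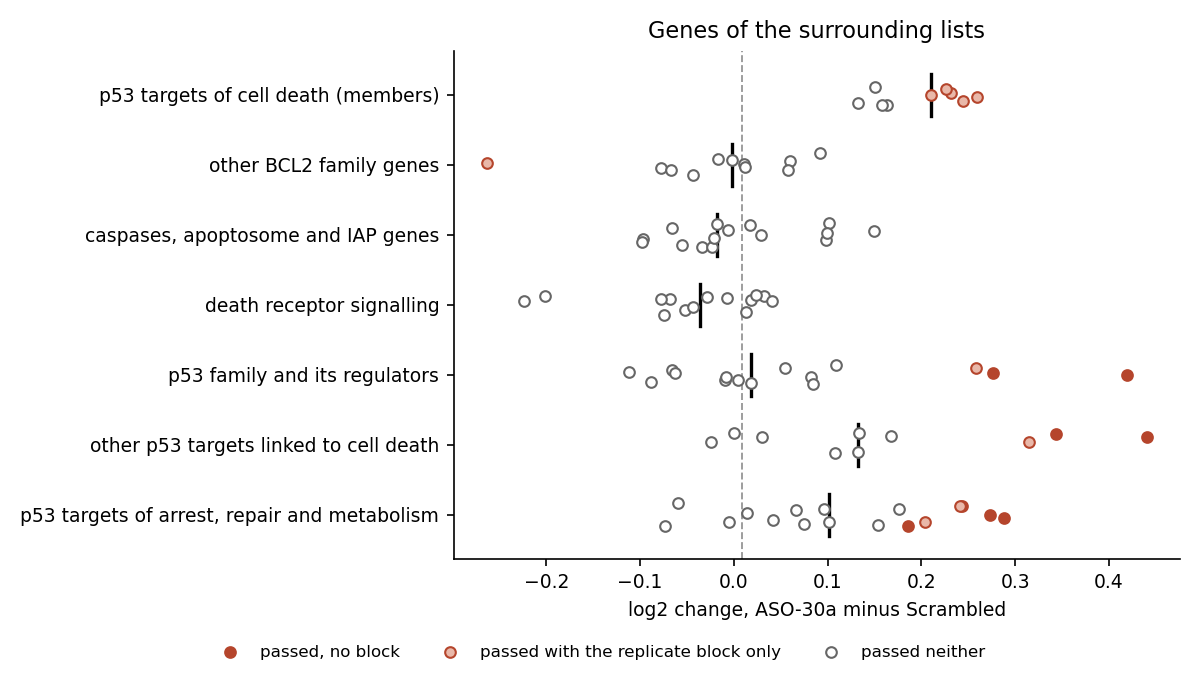
Log2 change (ASO-30a minus Scrambled, x axis) of every tested gene of the 9 p53 targets of cell death (top row) and of 6 surrounding lists. Filled points passed the test without a block, pale points passed only with the replicate block and open points passed neither. The black bars are list medians and the dashed line is the median of all genes tested. The 9 genes lie between 0.13 and 0.26 with a median of 0.21, while the medians of the first 3 surrounding lists lie between -0.04 and -0.002. The p53 lists below them have medians of 0.02 (family and regulators), 0.13 (other targets linked to cell death) and 0.10 (arrest, repair and metabolism). Their highest genes reach 0.42, 0.44 and 0.29.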

How the data were processed

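The authors deposited 1 table of log2 values for 10 Affymetrix mouse arrays. Per the labels' protocols, biotin labelling of the RNA used MessageAmp Premier. The summary method, background correction and normalization were not given in the sources used here, and the log2 scale was read from the values (highest 14.2). Groups and replicate numbers came from the titles. Of 45101 probe sets, 64 were controls, 34945 had 1 gene symbol, 932 had several and 9160 were unlisted. Symbols were updated through gene identifiers (34741 probe sets matched RefSeq). Per gene the probe set with the highest mean was kept, and genes with a mean under 4.56 (40% of probe sets) were left out.

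ASO-30a and Scrambled arrays were set against each other by a two-sided test in limma (version 3.58.1, under R 4.3.3, functions lmFit and eBayes). P-values were adjusted by Benjamini-Hochberg over 12633 genes, or over 27022 probe sets, with a threshold of 0.05. The fit without a block was tried on simulated data with known changes and independent arrays. The fit with the replicate block was not tried in this way. Same-numbered arrays deviated together from their group means over 12633 genes (correlations 0.172, 0.377, 0.112, 0.152 and 0.335). For other pairs the correlations ran from -0.312 to 0.231, with a mean of -0.059. The correlations of replicates 1, 3 and 4 lay within the range of the other pairs. The values therefore do not settle whether same-numbered arrays were paired. The numbers come from the titles, which name no pairing. The fit with the block was thus an alternative to the main fit, and calls that passed only with it depend on this pairing. The named genes were all members, every list gene that passed or otherwise the 3 with the smallest p, and Trp53, Mdm2, Cdkn1a, Bcl2l1 and Mcl1. An item withheld for evaluation is not reported here. Members, lists and alternatives were chosen with earlier results of these data known. The number of arrays limits the precision. Figures were drawn with matplotlib 3.10.9.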

Additional observations from a re-analysis of the deposited data

How the results depend on the processing

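None of the 9 genes changed sign under any alternative run. Of the 9, the count that passed was 0 in the fit as reported, 5 with the replicate block, 3 with a 60% filter on dim probe sets (which left Fas untested), 3 with an intensity trend in eBayes, 2 with the mean of a gene's probe sets and 1 with quantile normalization. It stayed at 0 with median centring and with no filter, ran from 0 to 1 with 1 array left out, and from 1 to 3 with the block and 1 pair left out (chosen after seeing the data). Of the 14 probe sets, 0 passed as reported, 2 with the block, 0 with the block and any 1 pair left out, and 2 with the intensity trend. Of the surrounding list genes 8 passed as reported and 13 with the block, 6 to 9 with 1 array left out, and 4 to 8 with the block and 1 pair left out. Over all genes 193 passed, 146 of them higher. These counts became 385 and 253 with the block and 314 and 230 with the intensity trend. They were 233 and 180 with the 60% filter (fewer genes tested) and 145 and 107 with no filter (more genes tested). With the mean of probe sets they were 180 and 142, with quantile normalization 187 and 136, and with median centring 173 and 127. With 1 array left out they ranged from 92 to 201 and from 78 to 160, and with the block and 1 pair left out from 142 to 187 and from 96 to 131. Tnfrsf1b, at -0.08 as reported, turned to 0.00495 with the mean of its probe sets. Where a count moved, the cause was not tested, beyond the smaller number of arrays or genes in some fits. Signal near the filter level limits Aen 1451186_at, and 5 arrays a group limit all changes of this size.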
